A study of Homo sapiens with 6 samples.

Results

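Most nuclear-encoded mitochondrial proteins are made in the cytosol and pulled across the mitochondrial membranes by dedicated translocases. The TOM complex is the entry gate of the outer membrane, the SAM complex inserts beta-barrel proteins there, and the TIM23 and TIM22 complexes pass precursors into the matrix or the inner membrane. Inside, presequences are cut off, chaperones fold the new protein and ATP-dependent proteases remove damaged copies, while fusion and fission GTPases set the shape of the network. The genes described here are those of this import, folding and dynamics machinery: every gene symbol that starts with TIMM or TOMM followed by a digit, together with named genes of the SAM complex, chaperones, proteases, processing peptidase, fusion and fission. They were chosen by name and not by value. The rule found 41 genes of 18132 measured, read by 99 of the 49395 probe sets of the array.

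RNA came from BCPAP, a cell line of human papillary thyroid carcinoma. The cells had received, by lentivirus, either a hairpin RNA that targets CSF2, which encodes the growth factor GM-CSF (shCSF2), or a non-targeting hairpin (shCtrl), and in both groups puromycin selection began 48 hours after transduction and lasted 7 days. Each group held 3 Affymetrix PrimeView arrays, labelled as biological replicates. How many hairpins targeted CSF2, and whether cells were kept as a pool or as clones, is not stated in the labels. The annotation used names CSF2 for 0 probe sets, so the targeted transcript was not analysed here and could not check the labels.

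All levels below are deposited log2 values of a probe set on an array, and all changes are log2 fold changes, shCSF2 minus shCtrl, with the moderated standard error from limma. A gene is called higher or lower where its limma p is under 0.05 after Benjamini-Hochberg adjustment over the 18132 genes. Levels of different genes are not compared as amounts of RNA, because probes differ in how strongly they bind. Arrays correlated with r of 0.998 within groups and 0.994 between groups across probe sets, which are not independent replicates, and no array repeated another. The thyroid transcription factor genes PAX8 and NKX2-1 averaged 8.09 and 9.57. Thyroglobulin (TG, 4.59), the TSH receptor gene TSHR (3.87) and the E-cadherin gene CDH1 (3.57) averaged below the array medians over probe sets (5.77 to 5.79). Of 7 thyroid markers 1, NKX2-1, fell, with a summed level of 10.3 to 10.4 in shCSF2 and 10.5 to 10.6 in shCtrl arrays (log2), and of 5 epithelial markers 1, KRT8, fell, with summed levels of 12.2 to 12.3 in both groups. The leukocyte gene PTPRC lay at 2.34. Of the measured leukocyte (4), endothelial (3) and fibroblast (4) markers 0 passed limma's adjusted threshold, and 1, LUM, had an unadjusted p under 0.05. The part of these markers in the results below was not tested. The 3′ to 5′ difference of the GAPDH control probe sets, which rises as RNA degrades, was -0.02 to 0.00 in shCSF2 and -0.05 to -0.03 in shCtrl arrays (exact two-sided permutation p = 0.1, the smallest that 3 arrays against 3 can give), and its part in the results below was not tested. For ACTB the groups overlapped (exact p = 0.6). In RNA from whole cultures, fewer cells of a kind and less RNA per cell cannot be told apart.

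The machinery changed by small amounts and in both directions. Of the 41 genes, 14 rose and 6 fell in shCSF2 cells by limma, which is 48.8% against 32.7% of all genes tested (16.7% higher, 16.0% lower). The largest rise was that of HSPA9, the matrix Hsp70 mortalin, at 1.26-fold, and the largest fall that of MFF, the receptor for the fission GTPase, at 1.21-fold. None of the 41 changed by 1.5-fold, a size that 431 of all 18132 genes reached. With the sign left aside, the median change was 0.13 over the 41 genes and 0.11 over all genes. The median change was 0.08 over the 41 genes and -0.03 over all genes. In 30 of the 41 (73.2%) the shCSF2 arrays lay wholly above (19) or wholly below (11) the shCtrl arrays, against 46.7% of all genes (22.1% above, 24.6% below).

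The genes were mostly well expressed, and 39 of the 41 averaged 5 or more on the log2 scale. When only such genes were tested, 25 of 39 members passed, against 51.4% of genes, and among genes at or above the median expression 28 of 39 passed, against 64.0%. The split between directions also moved with the scaling: 12 rose and 9 fell after a further quantile normalization, 12 and 10 after cyclic loess, and 16 and 5 after median centring. Of all genes called, 49.6% rose after quantile normalization, 51.9% after cyclic loess and 58.9% after median centring, against 51.2% as deposited. Without shCtrl replicate 1 the number that rose was 9, and 27.1% of all genes were then called, against 32.7% with every array.

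**Figure D1:**
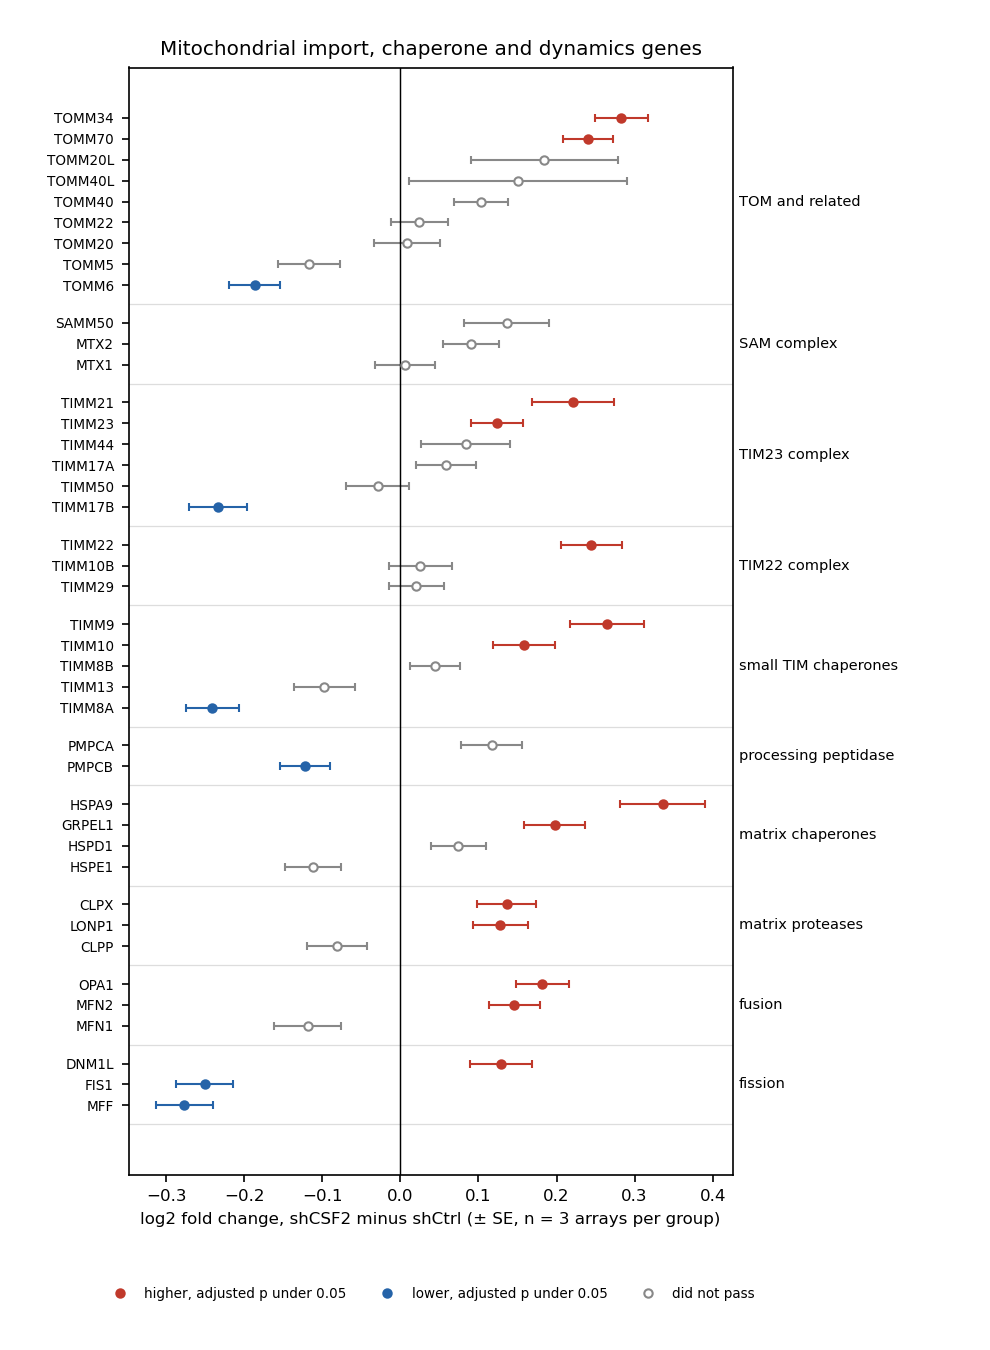
Log2 fold change of the 41 genes, shCSF2 minus shCtrl, with the standard error as bars (3 arrays per group), grouped by role. Filled red points passed the limma threshold as higher (14), filled blue points as lower (6), and open grey points did not pass; every value lies between -0.28 and 0.34.

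At the outer membrane, the genes that passed were a co-chaperone, a receptor and a small subunit. TOMM34, a cytosolic co-chaperone that hands precursors between Hsp70 and Hsp90, read 9.79, 9.74 and 9.74 on the shCSF2 arrays and 9.49, 9.47 and 9.46 on the shCtrl arrays. The groups did not overlap, and the rise was 0.28 ± 0.03 (adjusted p = 0.000952). TOMM70, the receptor for carrier precursors that arrive with chaperones, read 9.64, 9.65 and 9.63 on the shCSF2 arrays and 9.40, 9.38 and 9.41 on the shCtrl arrays. Here too every shCSF2 array was above every shCtrl array, with a rise of 0.24 ± 0.03 (adjusted p = 0.00138). TOMM6, a small subunit that steadies the TOM complex, went the other way, with 9.66, 9.71 and 9.67 on the shCSF2 arrays and 9.86, 9.87 and 9.86 on the shCtrl arrays, a fall of -0.19 ± 0.03 (adjusted p = 0.00486).

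The other TOM genes, among them the pore and the presequence receptors, did not pass. TOMM20, a receptor for presequences, read 10.42, 10.52 and 10.43 on the shCSF2 arrays and 10.42, 10.49 and 10.43 on the shCtrl arrays, and the groups overlapped (0.01 ± 0.04, adjusted p = 0.897). TOMM5, another small subunit, read 10.23, 10.26 and 10.27 on the shCSF2 arrays and 10.31, 10.39 and 10.41 on the shCtrl arrays, with the shCSF2 arrays all lower but short of the threshold (-0.12 ± 0.04, adjusted p = 0.06); without shCtrl replicate 1 its value was -0.15 and passed. The pore gene TOMM40 stood at 0.10 ± 0.03 and the central receptor gene TOMM22 at 0.02 ± 0.04. Their 95% confidence intervals were 0.02 to 0.18 and -0.06 to 0.11. The paralogs TOMM40L (0.15 ± 0.14) and TOMM20L (0.18 ± 0.09) had mean log2 values of 4.46 and 3.16, below 5 on that scale, and did not pass.

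None of the 3 genes of the SAM complex, which folds beta-barrel proteins such as the TOM pore into the outer membrane, passed limma's adjusted threshold, although SAMM50 and MTX2 had an unadjusted p under 0.05. SAMM50, its barrel subunit, stood at 0.14 ± 0.05, and its adjusted p was 0.102. Without shCtrl replicate 3, whose value of 8.65 was the highest of that group, SAMM50 stood at 0.19 and passed. The metaxin genes MTX2 and MTX1 stood at 0.09 ± 0.04 and 0.01 ± 0.04. MTX2 was higher in all shCSF2 arrays, and for MTX1 the groups overlapped.

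At the inner membrane, 2 genes of the TIM23 complex rose and 1 fell among 6. TIMM21, which docks TIM23 to the TOM complex, read 8.30, 8.40 and 8.26 on the shCSF2 arrays and 8.13, 8.15 and 8.03 on the shCtrl arrays, a rise of 0.22 ± 0.05 (adjusted p = 0.0167). TIMM23, the channel subunit, read 10.65, 10.68 and 10.63 on the shCSF2 arrays and 10.53, 10.53 and 10.52 on the shCtrl arrays, and all shCSF2 arrays were above all shCtrl arrays (0.12 ± 0.03, adjusted p = 0.027). TIMM23 kept its call without shCSF2 replicate 3 but lost it without any 1 of the other 5 arrays (0.11 to 0.13). TIMM17B, the X-linked form of the channel partner TIMM17, read 8.94, 8.94 and 8.99 on the shCSF2 arrays and 9.19, 9.15 and 9.23 on the shCtrl arrays, a fall of -0.23 ± 0.04 (adjusted p = 0.00306).

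The other 3 genes of this complex did not pass. TIMM17A, the second form of TIMM17, stood at 0.06 ± 0.04 with a 95% interval of -0.03 to 0.15. The presequence receptor gene TIMM50 stood at -0.03 ± 0.04, and TIMM44, which tethers the Hsp70 motor to the channel, at 0.08 ± 0.06. In all 3 the groups overlapped.

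Of the 3 genes of the TIM22 complex, which inserts carriers into the inner membrane, the channel gene TIMM22 rose. It read 6.83, 6.89 and 6.87 on the shCSF2 arrays and 6.57, 6.63 and 6.66 on the shCtrl arrays, so that the lowest shCSF2 array was above the highest shCtrl array (0.24 ± 0.04, adjusted p = 0.0033). TIMM29, a subunit that links TIM22 to the outer membrane, stood at 0.02 ± 0.04, and TIMM10B, a membrane-bound relative of the small TIM chaperones, at 0.03 ± 0.04. For neither did the groups separate.

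The small TIM chaperones, which carry hydrophobic precursors through the space between the membranes, work as hexamers of TIMM9 with TIMM10 or of TIMM8A with TIMM13. Both subunits of the first hexamer rose. TIMM9 read 8.07, 8.03 and 7.97 on the shCSF2 arrays and 7.81, 7.69 and 7.78 on the shCtrl arrays (0.26 ± 0.05, adjusted p = 0.005). TIMM10 read 9.85, 9.85 and 9.89 on the shCSF2 arrays and 9.65, 9.73 and 9.74 on the shCtrl arrays (0.16 ± 0.04, adjusted p = 0.0201). Without shCSF2 replicate 3 (0.14) or shCtrl replicate 1 (0.13) TIMM10 no longer passed. Of the other hexamer, TIMM8A, the gene mutated in deafness-dystonia syndrome, read 6.54, 6.53 and 6.48 on the shCSF2 arrays and 6.76, 6.77 and 6.75 on the shCtrl arrays, a fall of -0.24 ± 0.03 (adjusted p = 0.00184). With both of its probe sets averaged the fall was -0.15. TIMM13 was lower in all shCSF2 arrays but did not pass (-0.10 ± 0.04, adjusted p = 0.107). TIMM8B, the paralog of TIMM8A, read 9.82, 9.81 and 9.81 on the shCSF2 arrays and 9.75, 9.76 and 9.80 on the shCtrl arrays, with the shCSF2 arrays all slightly higher, and did not pass (0.04 ± 0.03), although its second probe set was lower (-0.21).

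**Figure D2:**
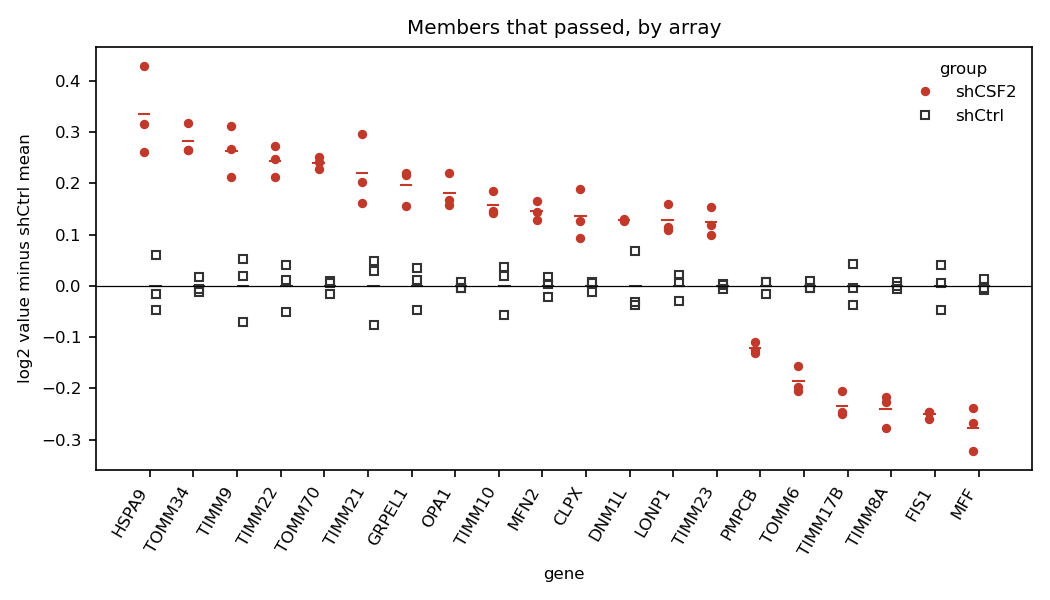
Log2 value of each array minus the mean of the 3 shCtrl arrays of that gene, for the 20 genes that passed, with shCSF2 arrays as filled red circles, shCtrl arrays as open black squares and group means as short lines. In none of the 20 did the groups overlap. The 20 were picked by passing on these same arrays, so the separation is no further support. The share over all genes that passed is not given here.

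The 2 subunits of the processing peptidase, which cuts presequences from imported proteins, stood on opposite sides of zero. PMPCB, the catalytic subunit, read 9.45, 9.43 and 9.43 on the shCSF2 arrays and 9.57, 9.57 and 9.54 on the shCtrl arrays, a fall of -0.12 ± 0.03 (adjusted p = 0.0241). PMPCB kept its call without shCtrl replicate 3 but lost it without any 1 of the other 5 arrays (-0.13 to -0.12), and after median centring (-0.10). With its most variable probe set, whose mean log2 value was 3.58, PMPCB stood at -0.25. PMPCA, which binds the presequence, stood at 0.12 ± 0.04 (adjusted p = 0.0585), and passed without shCtrl replicate 1 (0.14). Its second probe set stood at -0.085, and with both averaged PMPCA stood at 0.016 and did not pass.

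The matrix Hsp70 and its exchange factor rose, and the Hsp60 chaperonin genes did not pass. HSPA9 read 11.41, 11.52 and 11.36 on the shCSF2 arrays and 11.08, 11.16 and 11.05 on the shCtrl arrays, with shCSF2 replicate 2 the highest, and rose by 0.34 ± 0.05 (adjusted p = 0.00333). GRPEL1, the nucleotide exchange factor that resets it, read 9.02, 9.08 and 9.08 on the shCSF2 arrays and 8.82, 8.90 and 8.87 on the shCtrl arrays, a rise of 0.20 ± 0.04 (adjusted p = 0.00804). HSPD1, the Hsp60 chaperonin, read 11.67, 11.68 and 11.66 on the shCSF2 arrays and 11.58, 11.64 and 11.56 on the shCtrl arrays and stood at 0.07 ± 0.04 (adjusted p = 0.159, 95% interval -0.01 to 0.16). Its co-chaperonin HSPE1 stood at -0.11 ± 0.04 (adjusted p = 0.052), lower in all shCSF2 arrays. The direction of HSPE1 is uncertain, since of 2 probe sets it shares with the read-through transcript HSPE1-MOB4, 1 rose (0.24) and 1 fell (-0.19) when all probe sets were tested. The shared probe set that rose averaged 10.7 (log2), the shared one that fell 8.33, and the one used for HSPE1 8.66. Whether HSPA9 changed more than HSPD1 was not tested.

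HSPD1 and HSPE1 are transcribed away from each other from neighbouring start sites, so 1 interval lies before both genes. It is shown because the 2 genes are the chaperonin and its lid, and because the promoter of HSPA9 can be set beside it. Bases are lower case, with capitals where a script found a motif searched for (below); sequences are from the RefSeq promoter table on GRCh38.p14. The interval between HSPD1 and HSPE1 is chr2:197500275-197500378, read on the plus strand towards HSPE1, and the HSPA9 sequence is the 250 bases before its start at chr5:138575402-138575651, minus strand.
HSPD1-HSPE1: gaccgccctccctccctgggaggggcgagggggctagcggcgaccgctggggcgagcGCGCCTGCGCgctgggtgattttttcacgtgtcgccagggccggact
HSPA9: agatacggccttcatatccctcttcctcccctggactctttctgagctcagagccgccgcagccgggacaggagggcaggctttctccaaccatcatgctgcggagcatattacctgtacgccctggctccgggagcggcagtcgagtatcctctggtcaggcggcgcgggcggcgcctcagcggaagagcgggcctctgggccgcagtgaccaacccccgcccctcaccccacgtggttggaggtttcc

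Among the ATP-dependent proteases of the matrix, LONP1, which degrades oxidised and unfolded proteins, read 8.93, 8.97 and 8.92 on the shCSF2 arrays and 8.78, 8.82 and 8.83 on the shCtrl arrays (0.13 ± 0.04, adjusted p = 0.0298). CLPX, the unfoldase that feeds the ClpP protease, read 8.27, 8.23 and 8.33 on the shCSF2 arrays and 8.14, 8.14 and 8.13 on the shCtrl arrays (0.14 ± 0.04, adjusted p = 0.0309). Both rose with no overlap between groups, but LONP1 lost its call when any 1 of the 6 arrays was left out (0.11 to 0.14), and CLPX when any 1 but shCSF2 replicate 2 was left out (0.11 to 0.14). With all 5 probe sets of CLPX averaged its value was 0.083 and did not pass, nor did it after quantile normalization (0.091). The peptidase gene CLPP stood at -0.08 ± 0.04 and did not pass, with the shCSF2 arrays all lower.

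The genes of mitochondrial fusion and fission also divided. OPA1, the GTPase that fuses inner membranes, read 8.03, 8.08 and 8.02 on the shCSF2 arrays and 7.86, 7.87 and 7.86 on the shCtrl arrays, a rise of 0.18 ± 0.03 (adjusted p = 0.0065). MFN2, a mitofusin of the outer membrane that also tethers mitochondria to the endoplasmic reticulum, read 9.71, 9.75 and 9.73 on the shCSF2 arrays and 9.56, 9.58 and 9.60 on the shCtrl arrays, a rise of 0.15 ± 0.03 (adjusted p = 0.0139). For both, every shCSF2 array was above every shCtrl array. OPA1 stood at 0.07 with its 5 probe sets averaged and did not pass, and MFN2 no longer passed without shCtrl replicate 1 (0.14). MFN1, the other mitofusin, stood at -0.12 ± 0.04 (adjusted p = 0.0771) and did not pass.

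Fission needs the cytosolic GTPase DNM1L and receptors that bring it to the outer membrane, among them MFF and FIS1. Both receptors fell. MFF read 9.20, 9.25 and 9.28 on the shCSF2 arrays and 9.51, 9.52 and 9.53 on the shCtrl arrays (-0.28 ± 0.04, adjusted p = 0.00133), and its fall was -0.17 with its 5 probe sets averaged. FIS1 read 8.55, 8.56 and 8.56 on the shCSF2 arrays and 8.76, 8.85 and 8.81 on the shCtrl arrays (-0.25 ± 0.04, adjusted p = 0.0021). DNM1L rose: it read 8.80, 8.80 and 8.80 on the shCSF2 arrays and 8.64, 8.74 and 8.64 on the shCtrl arrays (0.13 ± 0.04, adjusted p = 0.0467). The shCSF2 arrays of DNM1L were nearly equal, and shCtrl replicate 2 was the nearest to them. The call for DNM1L was lost when any 1 array but shCtrl replicate 2 was left out (0.11 to 0.13), and after quantile normalization (0.10) or cyclic loess (0.11).

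Paired members were compared within each array, as the log2 ratio of a gene to its paralog or partner, over 7 pairs. In 6 of the 7 the ratios of the groups did not overlap. For all of these but TIMM17A with TIMM17B, the shCSF2 arrays lay wholly above for a gene and wholly below for its partner. Their ratios therefore could not overlap, and the separation adds nothing to the values of the single genes. The share over other pairs of genes is not given here. DNM1L relative to FIS1 was higher by 0.38 in shCSF2 cells, TIMM17A relative to TIMM17B by 0.29 and PMPCA relative to PMPCB by 0.24. Other probe sets moved both of the latter. With the most variable probe set of each gene TIMM17A relative to TIMM17B was 0.024 and PMPCA relative to PMPCB 0.37. Those probe sets of TIMM17A and PMPCB had mean log2 values under 5 (3.11 and 3.58). With probe sets averaged the PMPCA value was 0.15. HSPD1 relative to HSPE1 was higher by 0.19, but 0.10 with probe sets averaged. With the most variable probe set, which for HSPD1 averaged 3.93 (log2), it was -0.24. The direction of this pair is uncertain, because the brightest probe set that names HSPE1, shared with HSPE1-MOB4 and not used here, rose (0.24). TIMM8A relative to TIMM8B (-0.29) and MFN1 relative to MFN2 (-0.26) were lower. The value for TIMM8A and TIMM8B was -0.074 with probe sets averaged and -0.035 with the most variable probe set. Each of these 6 had an exact two-sided permutation p of 0.1, the smallest possible with 3 arrays against 3, and an adjusted p of 0.117 over the 7 pairs, so none could pass. TOMM40 relative to TOMM40L differed by -0.05 (exact permutation p = 0.9).

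**Figure D3:**
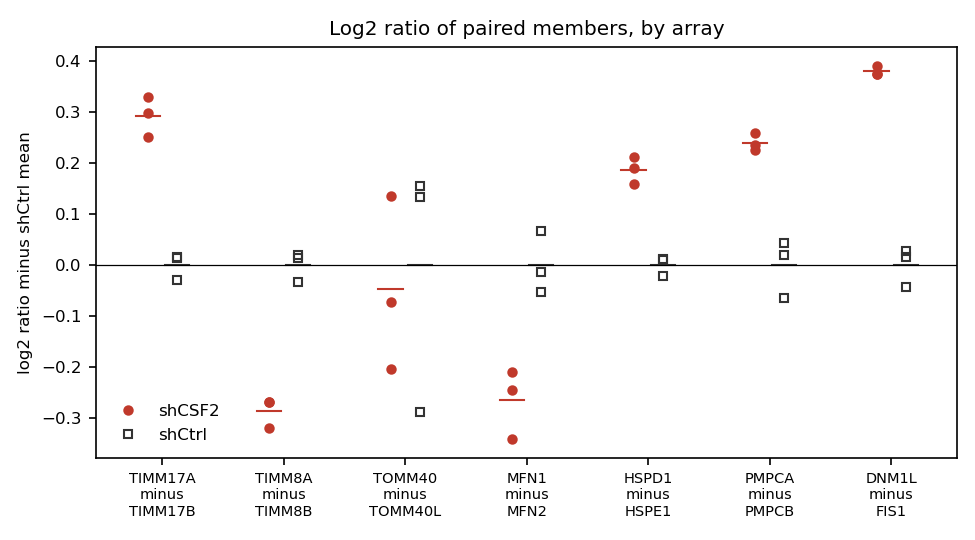
Log2 ratio of paired genes in each array, minus the mean ratio of the 3 shCtrl arrays, with shCSF2 arrays as filled red circles, shCtrl arrays as open black squares and group means as short lines. The groups overlap for TOMM40 with TOMM40L and for no other pair.

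Many members had more than 1 probe set, which may read another stretch of the transcript or an overlapping one. Probe sets of a gene are therefore not independent of each other. When every probe set of the array was tested, 25 of the 99 probe sets of members were higher and 11 lower, against 29.1% called over 49293 probe sets (15.3% higher, 13.8% lower). No member had calls in both directions. Among members that did not pass by the probe set used, another probe set rose for TIMM10B (0.17) and fell for TOMM5 (-0.13) and TIMM8B (-0.21), and 1 of TOMM40L with a mean log2 value under 5 rose (0.20). Of the 26 members with more than 1 probe set, 19 had changes of 1 sign in all of them, and the share over all genes is not given here. The 5 probe sets of HSPA9 all rose, by 0.30 to 0.43, as did both of TOMM34 (0.28 and 0.34), of GRPEL1 (0.20 and 0.24), of TIMM21 (0.22 and 0.26) and of TIMM23 (0.12 and 0.14). Of the 5 of MFF, 3 fell and all were below zero (-0.28 to -0.01). OPA1 was mixed, with 1 of 5 probe sets higher and a range of -0.03 to 0.18. The 7 of HSPD1 did not pass; 5 lay between 0.07 and 0.14, and the 2 below zero (-0.35 and -0.25) had mean log2 values under 5. For DNM1L, 1 of 4 probe sets passed (0.19), and the one used for the gene did not pass in this larger family of tests.

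**Figure D4:**
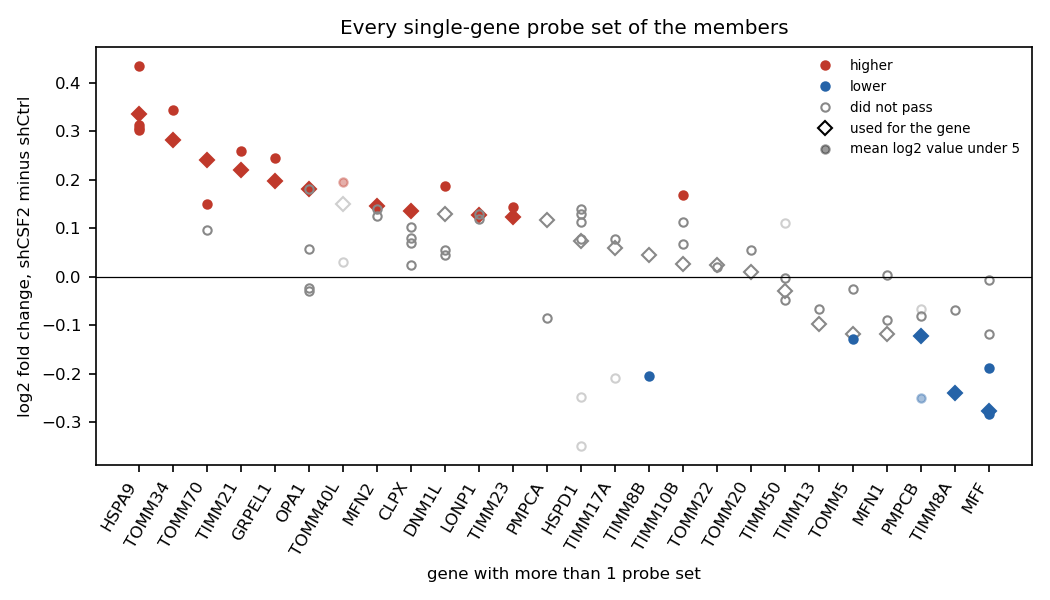
Log2 fold change, shCSF2 minus shCtrl, of every probe set of the 26 members with more than 1 probe set; diamonds mark the probe set used for the gene, red and blue fill those called higher or lower over all 49293 probe sets, open symbols those not called, and faint symbols those with a mean log2 value under 5. All 5 probe sets of HSPA9 are red, at 0.30 to 0.43, and no gene holds both red and blue symbols.

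Promoters were searched for letters bound by factors known to control nuclear genes of mitochondria. RefSeq promoters were matched for 37 of the 41 genes, with 42 start sites, and the 250 bases before each start were read on both strands. The NRF1 core, GCGCA, then any base, then GCGC, occurred in 9 of the 42 (21.4%), against 5.07% of 35116 promoters and 6.79% of those of the genes tested. The ETS core CCGGAAG, read by GABP, occurred in 12 (28.6%), against 8.52% and 10.8%. The YY1 core AAGATGGC was found in 1 (2.38%, against 1.36% of all promoters), the composite C/EBP-ATF element TGATGNAA in 2 (4.76%, against 3.14%) and the heat shock element (GAA, TTC and GAA with 2 free bases between each) in 1 (2.38%, against 0.441%). The heat shock element was found before HSPD1, with overlapping matches between 245 and 228 bases before a start, outside the interval printed above. A match is a description of the letters and not of binding.

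By call, the NRF1 core lay before 4 of the 13 genes that rose and had a promoter in the table, 0 of the 6 that fell and 5 of the 18 that did not pass. The ETS core lay before 4, 3 and 5 of these. The genes that rose with an NRF1 core were CLPX, LONP1, OPA1 and TOMM34, and HSPD1 and HSPE1 share a match in the interval printed above. The C/EBP-ATF element lay before TIMM22, which rose, and PMPCB, which fell. The sequences of TOMM34, MFF and FIS1, the remaining genes among the largest changes in each direction, follow. They are the 250 bases before the start at chr20:44960398-44960647 (minus strand), at chr2:227325001-227325250 (plus strand, the lowest of 3 listed starts) and at chr7:101245082-101245331 (minus strand). Capitals mark the NRF1 core in TOMM34 and the ETS core in FIS1, and none of the motifs was in the windows of MFF and HSPA9 printed. No capitals overlap another motif.
TOMM34: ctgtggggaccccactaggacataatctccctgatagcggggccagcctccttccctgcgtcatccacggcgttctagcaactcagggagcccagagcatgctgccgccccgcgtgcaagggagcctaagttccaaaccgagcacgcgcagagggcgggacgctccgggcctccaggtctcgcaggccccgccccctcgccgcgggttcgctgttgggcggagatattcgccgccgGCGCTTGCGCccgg
MFF: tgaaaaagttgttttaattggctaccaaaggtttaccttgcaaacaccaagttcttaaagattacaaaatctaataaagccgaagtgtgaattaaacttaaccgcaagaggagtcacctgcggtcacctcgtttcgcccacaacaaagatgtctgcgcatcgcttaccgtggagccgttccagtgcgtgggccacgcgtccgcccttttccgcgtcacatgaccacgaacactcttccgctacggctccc
FIS1: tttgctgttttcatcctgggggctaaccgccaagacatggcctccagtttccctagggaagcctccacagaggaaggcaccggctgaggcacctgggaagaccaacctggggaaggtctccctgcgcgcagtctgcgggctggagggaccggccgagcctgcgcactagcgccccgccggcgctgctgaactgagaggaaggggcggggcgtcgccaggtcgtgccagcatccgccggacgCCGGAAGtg

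The same pathways hold further genes, listed by role, of which 72 of 74 names were measured. Of these 27 rose and 12 fell (54.2% against the 32.7% of all genes), with a median change of 0.06. All 72 averaged over 5 on the log2 scale: among genes of at least 5, 30 were higher and 13 lower, against 51.4% of such genes called, and among genes at or above the median expression 28 and 12 of 64, against 64.0%. In the import motor, membrane insertion and disulfide relay group, 3 of 11 rose and 3 fell (54.5% against the 32.7% of all genes). GRPEL2, the stress-linked relative of GRPEL1, rose most (0.44 ± 0.04), and TIMMDC1 (-0.20 ± 0.03), a complex I assembly factor related to the TIM proteins by sequence, and ROMO1 (-0.19 ± 0.03), a small TIM23-associated protein, fell. Of 5 other mitochondrial chaperones and their partners 3 rose and 1 fell (80% against the 32.7% of all genes). HSCB (0.35 ± 0.04), which serves iron-sulfur cluster assembly, and DNAJA3 (0.27 ± 0.05), an Hsp40 partner of HSPA9, rose. The disaggregase gene CLPB fell (-0.37 ± 0.06, or -0.19 with its probe sets averaged).

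Of 15 other proteases and prohibitins, 6 rose and 4 fell (66.7% against the 32.7% of all genes). AFG3L2 (0.40 ± 0.05), a subunit of the inner membrane m-AAA protease, and the rhomboid protease gene PARL (0.38 ± 0.04) rose. XPNPEP3, an aminopeptidase that trims presequence stubs, fell by the probe set used (-0.39 ± 0.05) but not with its 3 probe sets averaged (-0.08). Of 8 genes of MICOS, which shapes the cristae, 4 fell and 1 rose (62.5% against the 32.7% of all genes). APOOL (-0.40 ± 0.05, or -0.20 with its probe sets averaged) and CHCHD6 (-0.21 ± 0.05, or -0.34 with its most variable probe set) were among those that fell, and DNAJC11 (0.31 ± 0.04) rose.

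Of 19 other fusion, fission and transport factors, 6 rose and 0 fell by limma (31.6% against the 32.7% of all genes), and 0 were lower at an unadjusted p under 0.05. GDAP1, an outer membrane protein tied to fission and to Charcot-Marie-Tooth neuropathy, changed more than any of the 41 members, from 6.43, 6.44 and 6.48 in shCtrl to 7.57, 7.55 and 7.61 in shCSF2 arrays, which is 2.19-fold (1.13 ± 0.04). PLD6 (0.44 ± 0.09), a lipase of the outer membrane that did not pass by its most variable probe set (0.39), and SLC25A46 (0.36 ± 0.04), an outer membrane protein that binds the fusion machinery, also rose.

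Of 14 transcription factors and coactivators of the mitochondrial stress response and of biogenesis, 8 rose and 0 fell by limma. This is 57.1% against the 32.7% of all genes (16.7% higher, 16.0% lower), and 0 were lower at an unadjusted p under 0.05. All 14 averaged over 5, and 51.4% of such genes passed when only they were tested. TFAM, which packages and transcribes mitochondrial DNA, rose most (0.76 ± 0.04), from 7.70, 7.72 and 7.79 to 8.47, 8.53 and 8.49. TFB2M, its partner in mitochondrial transcription (0.52 ± 0.05), and DDIT3, which encodes CHOP (0.65 ± 0.05), followed. NRF1, whose core was searched for above, stood at 0.16 ± 0.03 and passed, while GABPA, the DNA-binding subunit of GABP, stood at -0.08 ± 0.06 and did not. NRF1 and GABPA were chosen after their values were seen.

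**Figure D5:**
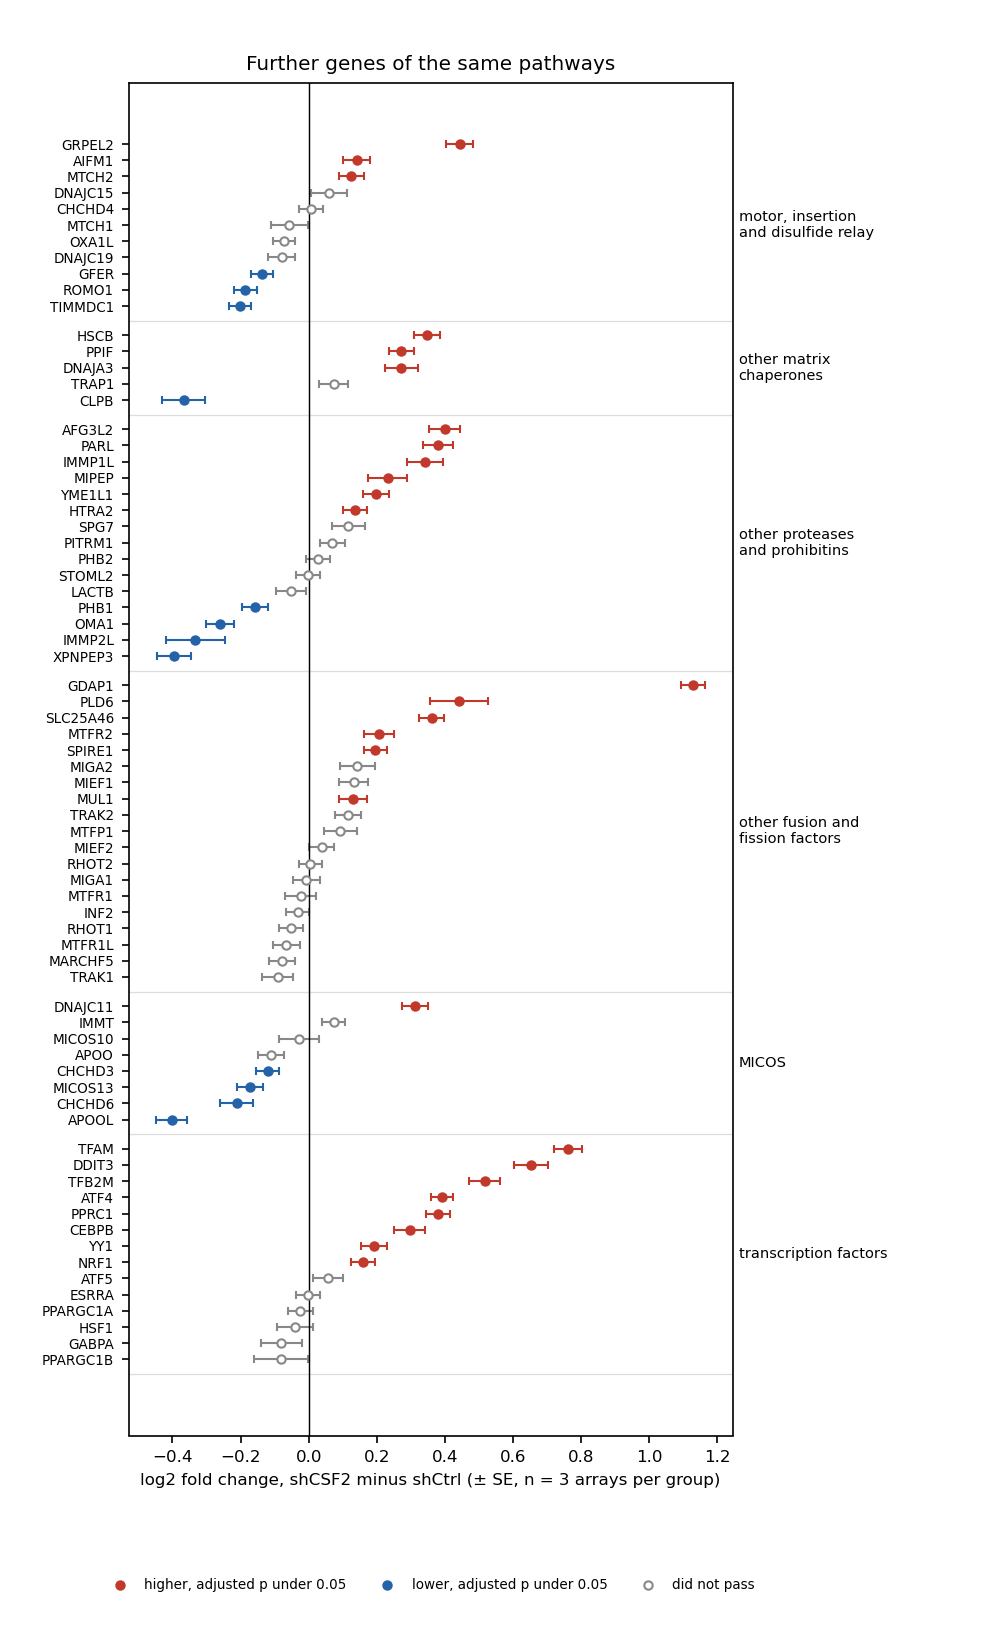
Log2 fold change of the 72 further genes, shCSF2 minus shCtrl, with the standard error as bars (3 arrays per group), in the 6 groups described; filled red points were higher (27), filled blue points lower (12) and open grey points did not pass. GDAP1, at 1.13, and TFAM, at 0.76, lie farthest from zero.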

How the data were processed

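Total RNA of 6 BCPAP cultures, 3 shCSF2 and 3 shCtrl by their titles, was labelled from 200 ng with a 3′ kit and hybridised to PrimeView arrays, per the labels' protocols. The authors deposited log2 expression values, 1 per probe set and array. RMA, oligo and limma are named in the submitters' processing notes, without versions or roles. RMA corrects background, equalises arrays and compresses changes of dim probe sets; scanner files were not used here, so these steps stayed as deposited. With 3 arrays per group, the number of arrays limits precision.

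Symbols came from the annotation of the platform: 44988 probe sets had 1 symbol, 1832 several and 2473 none listed, beside 102 controls. Against RefSeq, 27 symbols did not match and 0 changed. Each gene was read by its brightest probe set on average, and genes without a probe set of their own, TOMM7 among them, are not analysed here. Differences were fitted over all 18132 genes with limma 3.58.1 (lmFit, eBayes) in R 4.3.3, with no block, filter or trend. Paired members and RNA quality were compared by exact permutation tests. Simulated data over 18132 genes, with independent noise per gene and no other genes changed, were also tested. Of genes raised by 0.15, 0.25 and 0.5 (50 each), 6%, 28% and 68% were recovered. Of 50 lowered by 0.25, 44% were recovered, and 3 of 76 calls were false. In the arrays 5930 genes passed, and the adjusted threshold depends on the share of genes that change. The simulated rates therefore do not give the recovery in this comparison.

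The members and lists were chosen with earlier results of these data known. All 41 members are named; array values are given for those that passed and for the 4 others with the highest mean, and of each further list up to 3 passing genes with the largest change. Promoter motifs and the tests of each probe set were chosen after the data were seen. Alternatives were 2 filters on dim genes, 3 further normalizations, a robust fit with a variance trend, weights per array, 2 other choices of probe set, a block for the replicate number, and each array left out in turn.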

Additional observations from a re-analysis of the deposited data

Results flagged for a closer look

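A probe set shared by HSPE1 and the read-through HSPE1-MOB4, left out of the comparisons because it names 2 genes, gave a signal above the control arrays: its log2 fold change was 0.24 and passed limma's threshold over all probe sets. A second shared probe set of these genes fell (-0.19), and the probe set of HSPE1 alone stood at -0.11.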

How the results depend on the processing

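Of the 20 members that passed, 12 kept call and direction under every alternative in which they were tested, 8 lost the call under at least 1, and 0 turned direction. The 8 were CLPX, DNM1L, LONP1, MFN2, OPA1, PMPCB, TIMM10 and TIMM23. Of the 21 that did not pass, 11 passed under at least 1 alternative. The shares of all genes that kept, lost or gained a call in this way are not given here. Leaving out 1 array, the members higher were 9 to 11, those lower 5 to 6, the further genes higher 22 to 27 and lower 8 to 12, and the member median 0.067 to 0.087. Over all genes 27.1% to 28.4% were then called, against 32.7% with every array. The members lower were 10 with genes below the median expression left out, 10 after cyclic loess and 11 with a variance trend. Of all genes tested, 64.0%, 32.8% and 37.8% were called in these settings, in that order. The member median was 0.061 after quantile normalization, 0.11 after median centring, 0.072 after cyclic loess, 0.073 with all probe sets averaged and 0.10 with the most variable probe set; a spread of 0.0095 between arrays of a group was the yardstick. The cause of these shifts was not tested.

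Deviations of same-numbered arrays correlated only weakly, with r of 0.03, 0.05 and 0.03 across genes. Of the 3 shCSF2 arrays, 2 correlated best with their own number. Whether the replicate numbers pair the arrays is not settled by these values. With the replicate number as a block, 10 members were higher and 5 lower, and 30.1% of all genes were called.

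Changes of sign were limited to members that did not pass and to pairs. After quantile normalization MTX1 stood at -0.025, TIMM10B at -0.022, TIMM29 at -0.017 and TOMM22 at -0.0073. After cyclic loess MTX1 stood at -0.017 and TIMM29 at -0.00164. With all probe sets averaged HSPD1 stood at -0.0087, TIMM17A at -0.024, TIMM50 at 0.0079 and TIMM8B at -0.081. With the most variable probe set these genes stood at -0.35, -0.21, 0.11 and -0.21, in that order, and HSPD1 minus HSPE1 was -0.24. The most variable probe sets of HSPD1, TIMM17A and TIMM50 had mean log2 values under 5 (3.93, 3.11 and 2.21), and that of TIMM8B averaged 8.36. Leaving out 1 array gave MTX1 a range of -0.013 to 0.029, TIMM10B -0.0067 to 0.042, TIMM29 -0.0023 to 0.034, TOMM20 -0.023 to 0.029 and TOMM40 minus TOMM40L -0.19 to 0.031. Both filters on dim genes left out TOMM20L and TOMM40L, which therefore have no value there.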

Other observations

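Of 12 probe sets that name a member together with another gene, 1 was higher, 5 were lower and 6 did not pass limma's threshold over all probe sets. Over all 49293 probe sets 29.1% were called (15.3% higher, 13.8% lower). Some of the 12 read the same gene and are not separate results. TOMM7, a small subunit of the TOM complex that also holds PINK1 at the outer membrane, had no probe set of its own, and the one it shares with C4orf46 fell (-0.24). Of 4 that TOMM6 shares with PRICKLE4, 2 fell (-0.17 and -0.18), beside the fall of TOMM6 alone (-0.19). The probe set shared by MFF and MFFP2 fell (-0.30), and the 3 shared by TIMM23 and TIMM23B did not pass (0.11 to 0.26).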
